A study of Mus musculus with 8 samples.

Results

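Fibroblast growth factors (FGFs) are small secreted proteins that bind receptor tyrosine kinases on nearby cells. The 8 FGF ligand genes described here, *Fgf3*, *Fgf5*, *Fgf7*, *Fgf9*, *Fgf10*, *Fgf18*, *Fgf20* and *Fgf22*, are known from tooth or hair, among other tissues. They were taken by gene name as 8 of the 23358 genes in an RNA-seq table of mouse incisor tissue. The proximal growth zone of the incisor (cervical loop, CL) was dissected from 4-week-old mice on a C57BL/6 background and divided into a head part with the epithelial stem cells (CLH) and a tail part with their descendants (CLT). In *Med1* cKO mice, Cre recombinase under the *Krt14* promoter removes floxed exons 8 to 10 of *Med1*, which encodes a subunit of the Mediator complex, from epithelial cells, so that *Med1* of the mesenchyme is not targeted. Ctrl mice were littermates without Cre. The study names 2 litters for this experiment, with no distinction of sex. The 4 groups (Ctrl CLH, *Med1* cKO CLH, Ctrl CLT and *Med1* cKO CLT) had 2 libraries each. For CLT, the study reports RNA-seq on pooled CL tissues, so the spread between libraries is not that between single mice. The labels do not say which library came from which litter, and p-values measure the spread between these libraries.

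In the continuously growing incisor, FGF3, FGF7, FGF9 and FGF10 are known as signals between the mesenchyme and the epithelium of the CL, where they act on the upkeep and division of the stem cells. FGF5 is the classical stop signal of hair growth, and its loss gives mice the long coat called angora. FGF22 is a ligand of the FGF7 subfamily described in skin and hair epithelium, FGF18 is described in the hair cycle, and FGF20 is a placode signal of the embryonic tooth and hair germ. The comparisons ask how the levels of these ligands differed between the labelled genotypes in each region and between the regions of each genotype.

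Levels are given as RPKM, reads per kilobase of the table's gene length, scaled to the reads of the library, which can be compared between genes. The libraries held 26591612 to 34420180 reads, of which 22330512 to 28651106 lay on genes of the table. The 2 Ctrl CLT libraries stood apart from each other. Their median difference per gene was 0.404 on the log2(RPKM + 1) scale, against 0.0922 to 0.113 in the other groups. In Ctrl CLT 1 the summed RPKM of a hair follicle list (8 genes, keratins and trichohyalin), a melanocyte list (5 genes) and a skeletal muscle list (7 genes) was 32.3%, 32.5% and 35.1% of the cKO CLT mean, whereas for Ctrl CLT 2 it was 0.152%, 2.15% and 2.602%. *Med1* itself was read at 4.83 and 8.71 RPKM for Ctrl CLT and at 9.15 and 8.96 RPKM for cKO CLT, and so was higher in the CLT libraries labelled cKO. In CLH it was at 7.71 and 9.12 RPKM for Ctrl and at 7.10 and 7.03 RPKM for cKO. Whole-gene reads include exons that Cre leaves in place and cells without Cre, so they do not check the deletion. Groups below are therefore the libraries labelled Ctrl or cKO. Whether Ctrl CLT 1 holds RNA of another group or carries a wrong label was not tested, and every Ctrl CLT mean and fold change below includes it unless it is said to be left out. Mesenchyme genes were present in every library of this tissue labelled as dental epithelial cells (11 genes, summed RPKM 2282 to 4698), beside basal and dental epithelium genes (6 genes, 620.3 to 1964 RPKM), so that fewer cells of a type and less RNA per cell cannot be told apart.

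The ligands fell into 2 patterns. *Fgf3*, *Fgf7*, *Fgf9* and *Fgf10* made up nearly all of the ligand RPKM in CLH, whereas *Fgf5* and *Fgf22* made up most of it in the CLT libraries labelled cKO. The summed RPKM of the 8 ligands was 15.2 and 18.2 for Ctrl CLH, 11.0 and 14.8 for cKO CLH, 13.4 and 9.92 for Ctrl CLT, and 36.3 and 40.2 for cKO CLT. *Fgf5* and *Fgf22* together were 0.390% and 1.67% of this sum for Ctrl CLH and 0.108% and 0.183% in cKO CLH. They were 79.3% of it for Ctrl CLT 1, 0.455% for Ctrl CLT 2, and 89.3% and 90.5% in the cKO CLT libraries. Thus the make-up of Ctrl CLT 2 was near that of the CLH libraries and the make-up of Ctrl CLT 1 was nearer to that of cKO CLT. *Fgf3* had the highest RPKM of the 8 in all 4 CLH libraries, followed by *Fgf10*, *Fgf7* and *Fgf9*. *Fgf22* was highest and *Fgf5* next in both cKO CLT libraries and for Ctrl CLT 1, and *Fgf10* and *Fgf3* led for Ctrl CLT 2. The reads behind these sums were 660 to 1662 per library.

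**Figure D1:**
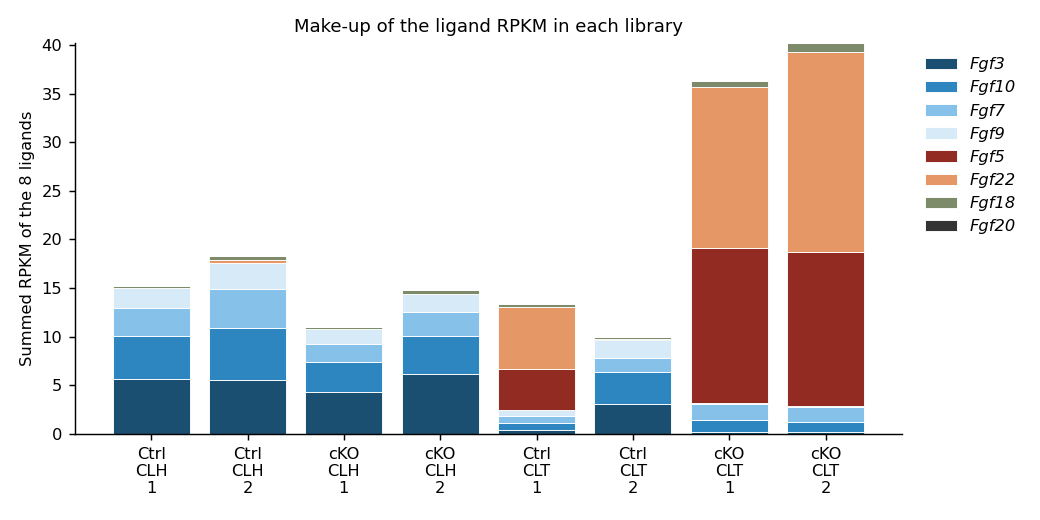
Stacked bars of RPKM for the 8 ligands (y axis, summed RPKM from 0) in each of the 8 libraries (x axis), 1 colour per gene. Blue shades (*Fgf3*, *Fgf10*, *Fgf7*, *Fgf9*) fill the CLH bars and Ctrl CLT 2, and the red and orange parts (*Fgf5*, *Fgf22*) fill most of Ctrl CLT 1 and of the cKO CLT bars, which reach 36.3 and 40.2 RPKM.

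*Fgf5* (mm10, chr5:98254184-98277030, counted over 2501 bases) was close to absent from CLH. It had 0 reads in both Ctrl CLH libraries, which allows up to 0.0348 and 0.0446 RPKM (3 reads, counting error only), and 1 and 2 reads in cKO CLH (0.0118 and 0.0271 RPKM). In Ctrl CLT it was at 4.24 and 0.0451 RPKM (310 and 3 reads), and for cKO CLT at 15.9 and 15.8 RPKM (1115 and 1078 reads; 15.9 ± 0.0704, mean ± SD, n = 2). The cKO CLT libraries were close to each other and above all others, whereas only 1 of the Ctrl CLT libraries rose above 3 reads.

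*Fgf22* (chr10:79755119-79756961, counted over 489 bases, so that few reads stand behind a given RPKM) also had its lowest CLT level for Ctrl CLT 2 and its highest ones in the cKO libraries. It was at 0.0594 and 0.304 RPKM for Ctrl CLH (1 and 4 reads) and at 0 reads in both cKO CLH libraries, which allows up to 0.182 and 0.208 RPKM. In Ctrl CLT it was at 6.36 RPKM (91 reads) and at 0 reads, and for cKO CLT at 16.6 and 20.6 RPKM (227 and 275 reads; 18.6 ± 2.87, SD, n = 2). As with *Fgf5*, Ctrl CLT 1 lay between Ctrl CLT 2 and the cKO libraries.

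Because *Fgf5* and *Fgf22* followed each other over the libraries, and *Fgf3*, *Fgf10* and *Fgf9* had the opposite pattern, the promoter windows of these 5 genes are shown. Each runs 5′ to 3′ from 250 bases before to 50 bases after the RefSeq gene start (GRCm38.p6, plus strand) at chr5:98253934-98254233 for *Fgf5*, chr10:79754859-79755158 for *Fgf22*, chr7:144838362-144838661 for *Fgf3*, chr13:118714449-118714748 for *Fgf10* and chr14:58072436-58072735 for *Fgf9*. Capitals mark matches to 6 motifs searched on both strands. These were the TATA box TATAAA, the CCAAT box, the GC box GGGCGG, the AP-1 motif TGANTCA, the RUNX motif TGTGGT and the EGR motif GCGNGGGCG, which can share bases with the GC box.
Fgf5: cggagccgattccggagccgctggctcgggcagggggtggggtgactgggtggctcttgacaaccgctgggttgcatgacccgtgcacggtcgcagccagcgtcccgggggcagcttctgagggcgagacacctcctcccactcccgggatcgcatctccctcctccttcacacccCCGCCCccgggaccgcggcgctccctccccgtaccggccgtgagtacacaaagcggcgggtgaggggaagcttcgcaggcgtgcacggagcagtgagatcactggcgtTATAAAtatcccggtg
Fgf22: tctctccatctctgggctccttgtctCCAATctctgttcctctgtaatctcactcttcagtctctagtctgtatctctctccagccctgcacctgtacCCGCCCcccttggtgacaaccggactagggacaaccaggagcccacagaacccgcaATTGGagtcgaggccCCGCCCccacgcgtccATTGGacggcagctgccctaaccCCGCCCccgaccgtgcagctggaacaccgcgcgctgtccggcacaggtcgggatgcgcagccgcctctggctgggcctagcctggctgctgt
Fgf3: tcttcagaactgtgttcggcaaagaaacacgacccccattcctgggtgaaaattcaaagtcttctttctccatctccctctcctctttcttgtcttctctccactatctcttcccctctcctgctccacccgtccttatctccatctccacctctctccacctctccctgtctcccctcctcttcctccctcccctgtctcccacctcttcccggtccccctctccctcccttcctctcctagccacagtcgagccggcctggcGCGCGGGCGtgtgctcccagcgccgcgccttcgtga
Fgf10: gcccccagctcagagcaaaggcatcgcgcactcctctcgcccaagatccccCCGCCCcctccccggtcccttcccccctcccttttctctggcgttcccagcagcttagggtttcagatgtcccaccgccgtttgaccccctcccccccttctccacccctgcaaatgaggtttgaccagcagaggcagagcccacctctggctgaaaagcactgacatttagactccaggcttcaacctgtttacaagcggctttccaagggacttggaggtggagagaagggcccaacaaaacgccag
Fgf9: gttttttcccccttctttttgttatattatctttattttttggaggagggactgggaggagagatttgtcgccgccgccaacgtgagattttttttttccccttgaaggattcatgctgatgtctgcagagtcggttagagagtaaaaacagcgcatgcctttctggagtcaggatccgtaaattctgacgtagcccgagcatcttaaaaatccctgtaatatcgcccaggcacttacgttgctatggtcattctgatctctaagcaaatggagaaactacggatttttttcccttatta

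The *Fgf5* and *Fgf22* windows shared only GGGCGG among these motifs. It stood 74 bases before the start of *Fgf5*, and 152, 81 and 42 bases before that of *Fgf22*, each time on the minus strand, and it also stood 199 bases before the start of *Fgf10*. Of all 32851 promoter windows of this length, 35.7% held it. TATAAA stood 34 bases after the *Fgf5* start (13.6% of all windows), CCAAT stood 3 times in the *Fgf22* window (37.4%), and GCGNGGGCG stood 14 bases after the *Fgf3* start (5.55%). The *Fgf9* window held none of the 6 motifs. TGANTCA (7.81% of all windows) and TGTGGT (16.8%) were in none of the 7 members' windows. The windows of *Fgf18*, *Fgf5*, *Fgf22*, *Fgf10* and *Fgf3* held 78.7%, 68.3%, 63.7%, 60.7% and 59.3% G and C, and those of *Fgf7* and *Fgf9* held 45.7% and 42.7%, against a median of 52.7% over all windows.

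The ligands known from the CL niche had the reverse pattern, with their highest levels in CLH. *Fgf3* (chr7:144838612-144843348) was at 5.67 and 5.52 RPKM for Ctrl CLH, 4.32 and 6.15 for cKO CLH, 0.372 and 3.12 for Ctrl CLT, and 0.239 and 0.215 for cKO CLT. Only 8 and 7 reads stood behind the cKO CLT values, and 13 and 99 behind those of Ctrl CLT. The CLH groups overlapped and lay above all 4 CLT libraries, and Ctrl CLT 1 was near the cKO CLT level.

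*Fgf9* (chr14:58072686-58112720), an epithelial signal to the mesenchyme, was at 1.99 and 2.65 RPKM for Ctrl CLH, 1.503 and 1.77 for cKO CLH, 0.685 and 1.89 for Ctrl CLT, and 0.147 and 0.0709 for cKO CLT. The reads were 284 and 295, 210 and 216, 83 and 208, and 17 and 8. cKO CLT was the lowest group without overlap, and Ctrl CLT overlapped cKO CLH.

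*Fgf10* (chr13:118714699-118792573), a mesenchymal signal to the epithelium, was at 4.42 and 5.42 RPKM for Ctrl CLH, 3.07 and 3.91 for cKO CLH, 0.770 and 3.27 for Ctrl CLT, and 1.17 and 0.986 for cKO CLT (103 to 695 reads). Here the 2 Ctrl CLT libraries lay on either side of the cKO CLT libraries, and Ctrl CLT also overlapped cKO CLH. An antisense transcript, Gm16263, overlaps an exon of *Fgf10* in the GENCODE M21 annotation, and since no strand setting is given, reads of the pair cannot be told apart.

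*Fgf7* (chr2:126034658-126091185), the keratinocyte growth factor of mesenchyme, was at 2.89 and 4.01 RPKM for Ctrl CLH, 1.85 and 2.52 for cKO CLH, 0.652 and 1.42 for Ctrl CLT, and 1.67 and 1.59 for cKO CLT (51 to 288 reads). No neighbouring groups in this order overlapped, and Ctrl CLT was the lowest.

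*Fgf18* (chr11:33117431-33147400) had 5 to 28 reads per library. It was at 0.187 and 0.343 RPKM for Ctrl CLH, 0.246 and 0.374 for cKO CLH, 0.284 and 0.173 for Ctrl CLT, and 0.625 and 0.946 for cKO CLT. Its cKO CLT values were above all others, and the other 3 groups overlapped. *Fgf20* (chr8:40279166-40286953) had 1 read for cKO CLT 1 (0.0242 RPKM) and 0 reads in the other 7 libraries, which allows up to 0.0591 to 0.0764 RPKM in these.

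**Figure D2:**
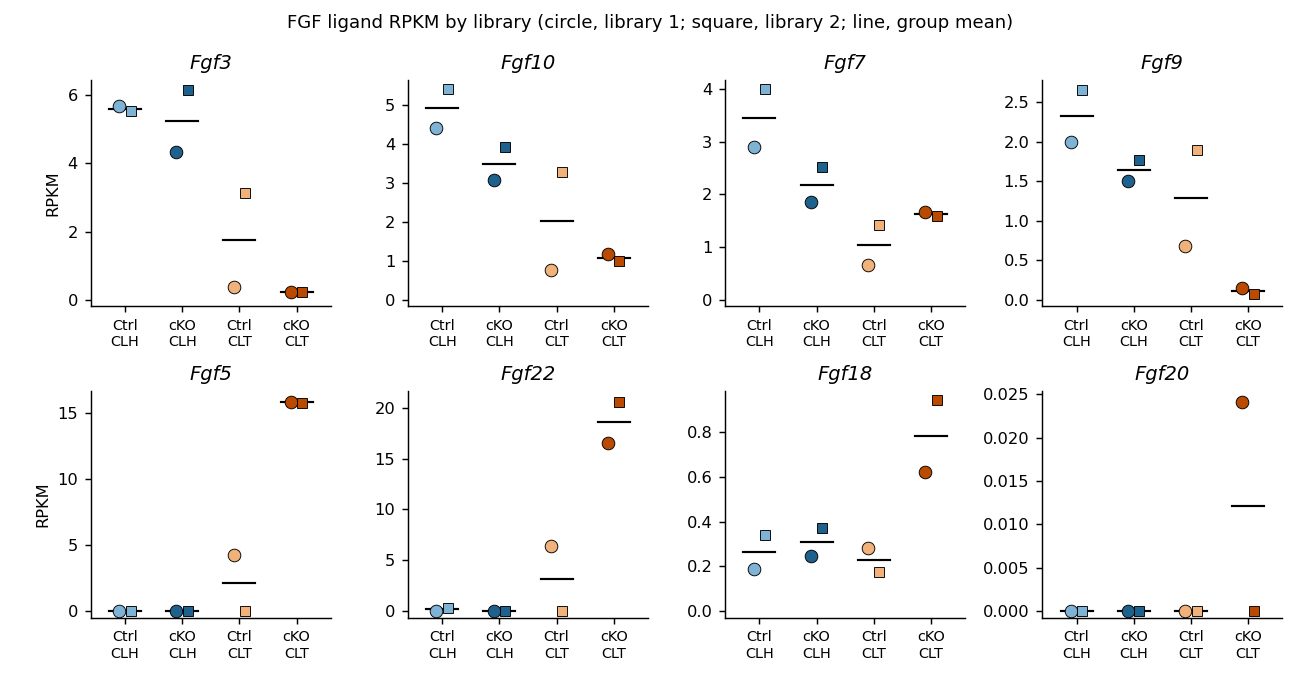
RPKM (y axis, a scale of its own in each panel) of the 8 ligands in the 4 groups (x axis), with circles for library 1, squares for library 2 and lines for group means. *Fgf3*, *Fgf10*, *Fgf7* and *Fgf9* are highest in CLH, *Fgf5* and *Fgf22* reach 15.9 and 20.6 RPKM for cKO CLT, and the 2 Ctrl CLT libraries are spread widely in most panels.

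Between the genotypes in CLT, none of the ligands passed the test. *Fgf5* and *Fgf22* had the largest differences on the log2(RPKM + 1) scale, which understates the change of low genes, and *Fgf9* and *Fgf3* had the largest ratios of means. By the means, *Fgf5* was 7.40-fold and *Fgf22* 5.84-fold higher in the CLT libraries labelled cKO, *Fgf7* was 1.57-fold higher, and *Fgf9* was 11.8-fold, *Fgf3* 7.69-fold and *Fgf10* 1.88-fold lower. The test was limma on log2(RPKM + 1) over the 14148 genes that reached an RPKM of 1 in 2 or more libraries, and called genes had a Benjamini-Hochberg adjusted p under 0.05. *Fgf18* and *Fgf20* were under this limit. *Fgf5* and *Fgf22* passed it only through CLT, where they are high, and needed the cKO CLT libraries for it. Outside these, they reached an RPKM of 1 in Ctrl CLT 1 only. Their p-values between the genotypes in CLT, here and in the fits below, are therefore no independent support for a higher level in cKO CLT. The log2 fold change was 2.85 (SE 0.83) for *Fgf5* and 2.84 (SE 1.03) for *Fgf22*, with limma adjusted p of 0.10 and 0.14. It was -0.99 (SE 0.33, adjusted p = 0.12) for *Fgf9* and -0.95 (SE 0.58, adjusted p = 0.29) for *Fgf3*. The differences of *Fgf7* (0.39, SE 0.26) and *Fgf10* (-0.41, SE 0.48) had limma adjusted p of 0.32 and 0.56. Thus limma called 0 of the 6 tested ligands, where 1.75% of all tested genes were called. At an unadjusted p under 0.05 there were 2 of 6, *Fgf5* and *Fgf9* (36.2% of all genes), and a voom model of the recovered reads called 0 of 6. The 2 groups did not overlap for 5 of the 6 ligands, *Fgf10* being the exception, and for 72.2% of all tested genes. When the spread was instead estimated from all 8 libraries, limma called *Fgf5* (adjusted p = 0.019), *Fgf9* (0.028) and *Fgf22* (0.036), and 43.7% of all tested genes.

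These differences turned on which Ctrl CLT library was used. Without Ctrl CLT 1, limma called 5 of the 6 ligands and 69.5% of all tested genes, with log2 fold changes of 4.01 for *Fgf5* (adjusted p = 1.06e-05), 4.28 for *Fgf22* (2.20e-05), -1.75 for *Fgf3* (5.21e-05), -1.38 for *Fgf9* (0.00012) and -1.04 for *Fgf10* (0.00070). Without Ctrl CLT 2 it called 4 of 6 and 52.1% of all tested genes, and the values were smaller for *Fgf5* (1.69, adjusted p = 0.00041), *Fgf22* (1.40, adjusted p = 0.0015) and *Fgf9* (-0.61, adjusted p = 0.0029), and larger for *Fgf7* (0.67, adjusted p = 0.0035). *Fgf10* then turned to 0.23. These fits leave 1 library in the Ctrl group, which is assumed to vary like the cKO libraries. The 2 Ctrl CLT libraries varied more, with a median difference per gene of 0.404 against 0.105 for cKO CLT. In every fit here and below without a Ctrl CLT library, that spread is left out of the p-values. *Fgf5* and *Fgf22* were thus higher in cKO CLT against either Ctrl CLT library, and *Fgf9* was lower against either.

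The share of the cKO CLT level that Ctrl CLT 1 reached was near that of the hair follicle, melanocyte and skeletal muscle lists. It was 26.7% for *Fgf5*, 34.2% for *Fgf22* and 30.8% for *Fgfbp1*, which encodes a carrier that releases FGFs from the matrix. Ctrl CLT 2 reached 0.285%, 0% and 0.426%. All 8 hair follicle genes, all 5 melanocyte genes and all 7 skeletal muscle genes were higher for Ctrl CLT 1 than for Ctrl CLT 2, where the melanocyte gene *Mlana* was at 0. The hair follicle list summed to 3706 and 17.4 RPKM for Ctrl CLT, 10946 and 11987 for cKO CLT, and 12.5 to 15.9 in CLH. The skeletal muscle list summed to 807.3 and 59.8 RPKM for Ctrl CLT, 2187 and 2413 for cKO CLT, and 34.2 to 40.6 in CLH. The melanocyte list summed to 130.4 and 8.62 RPKM for Ctrl CLT, 401 and 402 for cKO CLT, and 2.78 to 3.16 in CLH. The part of these cell types in the values of *Fgf5* and *Fgf22* was not tested. The mesenchyme list, like the mean RPKM of *Fgf3*, *Fgf9* and *Fgf10*, was lower in the CLT libraries labelled cKO. Its sum was 2897 and 4152 RPKM for Ctrl CLT and 2282 and 2532 for cKO CLT, with none of its 11 genes at 0. In log2 fold change, 2 of the 11 were above 0, and the median was -1.26, against -0.01 over all tested genes. *Fgf9* is an epithelial signal to the mesenchyme, and the mesenchymal ligand *Fgf7* was 1.57-fold higher by the means in the CLT libraries labelled cKO. The basal and dental epithelium list summed to 1358 and 856.9 RPKM for Ctrl CLT and 1738 and 1964 for cKO CLT, with 5 of its 6 genes above 0 in log2 fold change. The part of either list in the ligand values was not tested. The ameloblast list (7 genes) summed to 84584 and 37392 RPKM for Ctrl CLT and to 19.7 and 15.8 for cKO CLT, and limma called all 7 lower in the CLT libraries labelled cKO.

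**Figure D3:**
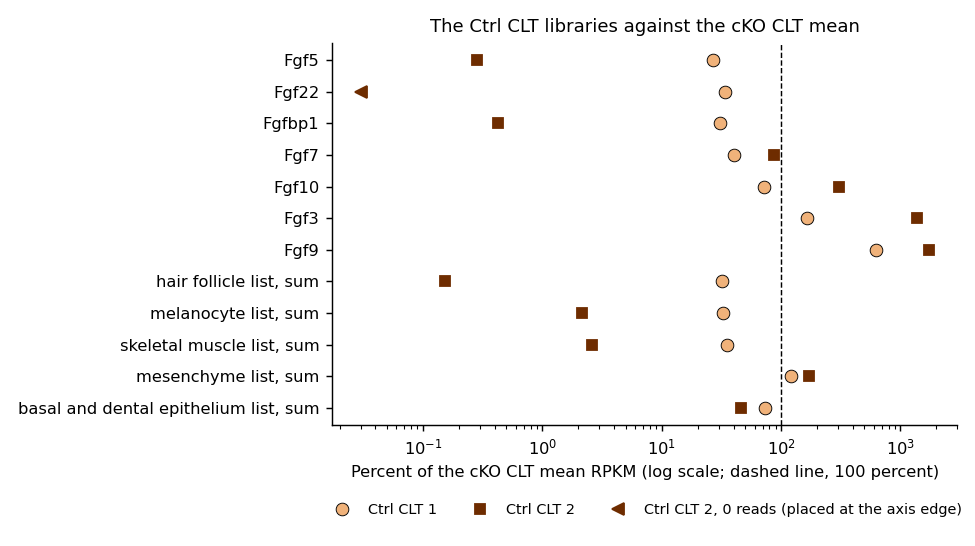
Levels for Ctrl CLT 1 (circles) and Ctrl CLT 2 (squares) as a percentage of the cKO CLT mean RPKM (x axis, log scale, dashed line at 100) for 7 genes and for the sums of 5 marker lists. *Fgf5*, *Fgf22* and *Fgfbp1* lie at 26.7% to 34.2% for Ctrl CLT 1 and at 0.426% or less for Ctrl CLT 2, beside the hair follicle, melanocyte and skeletal muscle lists, while *Fgf10*, *Fgf3* and *Fgf9* reach 304% to 1739% for Ctrl CLT 2.

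In CLH, the 4 CL niche ligands had lower means in the libraries labelled cKO, and no ligand passed the test. The mean RPKM of *Fgf7* was 1.58-fold, that of *Fgf9* 1.42-fold, that of *Fgf10* 1.41-fold and that of *Fgf3* 1.07-fold lower. The log2 fold changes were -0.48 (SE 0.18) for *Fgf7*, -0.40 (SE 0.15) for *Fgf10* and -0.33 (SE 0.13) for *Fgf9*, each with a limma adjusted p of 0.69, and -0.10 (SE 0.17, adjusted p = 0.89) for *Fgf3*, whose groups overlapped. For *Fgf22*, with 1 and 4 reads against 0 and 0, the value was -0.23 (SE 0.11, adjusted p = 0.69). *Fgf5* was at or under 3 reads in all 4 libraries, and no fold is given. Limma called 0 of the 6 ligands and 0% of all tested genes. At an unadjusted p under 0.05 there were 2 of 6, *Fgf7* and *Fgf10*, and 7.26% of all genes, and voom called 0 of both.

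Between the regions, the ligands called were those of the cKO libraries. In these, *Fgf5* and *Fgf22* rose from CLH to CLT, and *Fgf3*, *Fgf9* and *Fgf10* fell. The log2 fold change was 4.05 (SE 0.10, limma adjusted p = 5.85e-09) for *Fgf5* and 4.28 (SE 0.12, adjusted p = 1.48e-08) for *Fgf22*. Both genes passed the filter on low values only through CLT, so they could enter this comparison only as genes higher in CLT. Their p-values are therefore no independent support for the rise. By mean RPKM, *Fgf22* was at least 95.5-fold higher in CLT, computed against 3 reads in each CLH library. For *Fgf5*, with 3 reads over both CLH libraries, the depth-adjusted ratio of reads was 837 (95% exact interval 286 to 4060, counting error only). *Fgf3* was 23.1-fold lower (-2.33, SE 0.15, adjusted p = 1.58e-06), *Fgf9* 15.0-fold lower (-1.25, SE 0.11, adjusted p = 1.21e-05) and *Fgf10* 3.24-fold lower (-1.11, SE 0.12, adjusted p = 6.24e-05). *Fgf7* was 1.34-fold lower by the means (-0.27, SE 0.13, adjusted p = 0.083). The 5 of 6 ligands called stand beside 74% of all tested genes called in this comparison, 28.9% higher and 45.1% lower. Over all genes the median log2 fold change from CLH to CLT was -0.18 in cKO and -0.13 in Ctrl, and after median-of-ratios scaling, which sets it near 0 (0.02 and 0.01), the value of *Fgf7* in cKO was -0.12 and the directions of all 6 ligands were kept. This scaling kept all 5 calls, and with all 8 libraries in 1 fit the adjusted p of *Fgf10* was 0.054. Over the same comparison limma called all 8 hair follicle, all 5 melanocyte and all 7 skeletal muscle genes higher in CLT and 9 of 11 mesenchyme genes lower, and their part in the ligand values was not tested.

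In the Ctrl libraries, the same regional comparison called 0 of the 6 ligands, with 0.00707% of all tested genes called. At an unadjusted p under 0.05 there was 1 of 6, *Fgf7* (13.1% of all genes), and voom called 0 of 6. The log2 fold change from CLH to CLT was -1.14 (SE 0.30, limma adjusted p = 0.34) for *Fgf7*, -1.47 (SE 0.59, adjusted p = 0.40) for *Fgf3*, -1.10 (SE 0.49, adjusted p = 0.43) for *Fgf10* and -0.58 (SE 0.35, adjusted p = 0.50) for *Fgf9*. By the means these were 3.33-fold, 3.20-fold, 2.43-fold and 1.80-fold lower in CLT. *Fgf5* had a value of 1.23 (SE 0.85, adjusted p = 0.54) and *Fgf22* one of 1.21 (SE 1.05, adjusted p = 0.59), and for both the CLT level came from Ctrl CLT 1. Without Ctrl CLT 1, *Fgf5* was at 0.06 and *Fgf22* at -0.23, with 0 of 6 ligands and 3.31% of all tested genes called, whereas without Ctrl CLT 2 limma called all 6 and 53.3% of all tested genes, with *Fgf5* at 2.39 (adjusted p = 0.0034) and *Fgf22* at 2.65 (adjusted p = 0.0084).

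**Figure D4:**
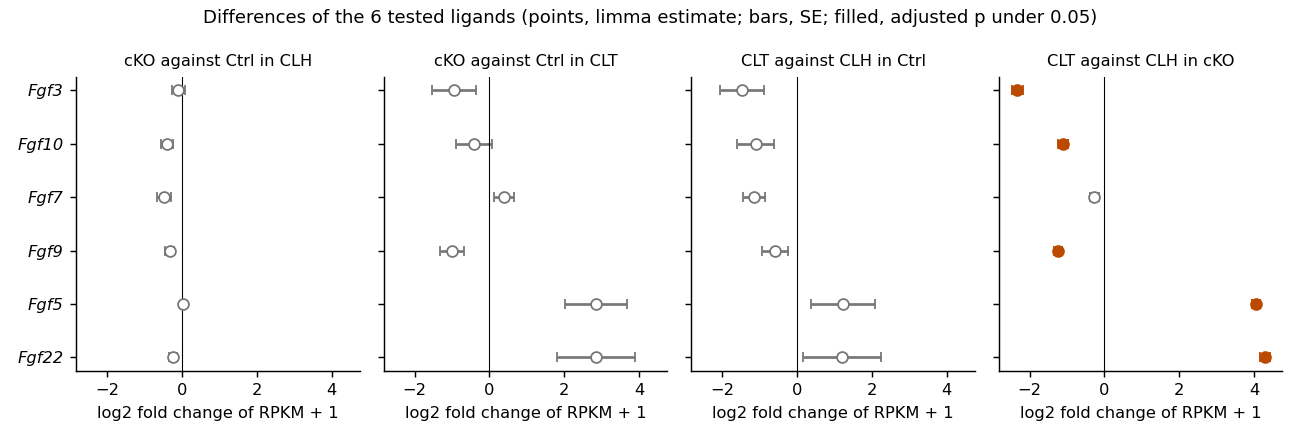
Log2 fold changes of RPKM + 1 (x axis) with their SE (bars) for the 6 tested ligands in 4 comparisons (panels), with filled points for a limma adjusted p under 0.05. Filled points appear only for CLT against CLH in cKO, from 4.28 for *Fgf22* to -2.33 for *Fgf3*, and the bars are widest in the panels that use the Ctrl CLT libraries.

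The difference of the genotype effect between CLT and CLH was tested over all 8 libraries. It was 2.82 (SE 0.95, limma adjusted p = 0.084) for *Fgf5*, 3.08 (SE 1.18, adjusted p = 0.11) for *Fgf22* and 0.87 (SE 0.34, adjusted p = 0.11) for *Fgf7* on the log2 scale. The values of *Fgf3* (-0.86, SE 0.68) and *Fgf9* (-0.66, SE 0.38) had adjusted p of 0.39 and 0.24. That of *Fgf10* was -0.01 (SE 0.56, adjusted p = 0.99), and turned to 0.02 under median-of-ratios scaling. Limma called 0 of 6 ligands, against 17.6% of all tested genes. The p-values of *Fgf5* and *Fgf22* are again no independent support, since both passed the filter only with the cKO CLT libraries. At an unadjusted p under 0.05 there were 3 of 6 (*Fgf5*, *Fgf7* and *Fgf22*; 38% of all genes), and voom called 0 of 6. Without Ctrl CLT 1 limma called 5 of 6 (63.1% of all genes), with *Fgf5* at 3.98 and *Fgf22* at 4.52, and without Ctrl CLT 2 limma called 4 of 6 (46.6% of all genes), with *Fgf5* at 1.66 and *Fgf22* at 1.64.

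The other genes of the FGF pathway were counted from 3 lists. These were other FGF genes (ligands and FGF-like factors that stay inside the cell), receptors with binding proteins, and feedback or target genes. Between the genotypes in CLT, none of the 20 tested genes of these lists passed limma, and voom called 0 of all genes. At an unadjusted p under 0.05 there were 1 of 3 other FGF genes, 4 of 7 receptors and binding proteins, and 3 of 10 feedback and target genes. The share of all tested genes was 36.2%. Of the 14 other FGF genes, 3 were tested. The 2 with the largest differences were *Fgf1*, a ligand of all FGF receptors, and *Fgf13*, an FGF-like factor that stays inside the cell. *Fgf1* was at 11.7 and 12.3 RPKM for Ctrl CLT and 4.86 and 4.35 for cKO CLT (-1.21, SE 0.16, adjusted p = 0.060). *Fgf13* was at 1.58 and 7.54 RPKM for Ctrl CLT and 1.40 and 1.07 for cKO CLT (-1.07, SE 0.64, adjusted p = 0.28). The difference of the genotype effect between the regions was called for *Fgf1* (-1.26, SE 0.16, adjusted p = 0.0082), and leaving out any 1 of the CLH or cKO CLT libraries brought its adjusted p to 0.051 to 0.063. From CLH to CLT in cKO, *Fgf13* (-1.51) and *Fgf1* (-0.36, adjusted p = 0.012) fell, the latter with an adjusted p of 0.16 after median-of-ratios scaling, 0.053 without cKO CLH 1, 0.053 without cKO CLH 2 and 0.10 without cKO CLT 2. In this comparison 74% of all tested genes were called.

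Among 7 tested receptors and binding proteins, *Fgfr1*, the main FGF receptor of mesenchyme, was at 81.5 and 139.8 RPKM for Ctrl CLT and 17.2 and 17.2 for cKO CLT. Its log2 fold change in CLT was -2.57 (SE 0.30, limma adjusted p = 0.052), and the difference of the genotype effect between the regions was -2.74 (SE 0.33, adjusted p = 0.0072). *Fgfrl1*, a receptor without a kinase domain, had a called difference of the same kind (-1.20, SE 0.19, adjusted p = 0.015). Leaving out 1 CLH or cKO CLT library brought the adjusted p of *Fgfrl1* to 0.058 to 0.087. That of *Fgfr1* rose to 0.057 without Ctrl CLH 2, 0.051 without cKO CLH 1, 0.051 without cKO CLH 2 and 0.055 without cKO CLT 1. *Fgfbp1* was at 14.1 and 0.195 RPKM for Ctrl CLT and 45.4 and 46.2 for cKO CLT (3.46, SE 1.29, adjusted p = 0.15), with Ctrl CLT 2 lowest, Ctrl CLT 1 between and both cKO libraries highest. *Fgfr2*, whose epithelial isoform is the receptor of FGF7, FGF10 and FGF22, had a value of -0.01 (SE 0.19, adjusted p = 0.98) in CLT. In the cKO libraries, *Fgfbp1* (5.09) and *Fgfbp3* (0.40) rose from CLH to CLT, and *Fgfr1* (-3.07), *Fgfrl1* (-1.35) and *Fgfr2* (-0.52) fell. Of all tested genes, 74% were called in this comparison, 28.9% higher and 45.1% lower. Like *Fgf5* and *Fgf22*, *Fgfbp1* passed the filter on low values only through CLT and with the cKO CLT libraries. Its p-values are therefore no independent support for a higher level there. The adjusted p of *Fgfbp3* was 0.054 without cKO CLT 1 and 0.068 with all 8 libraries in 1 fit.

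Of the 10 feedback and target genes tested, *Spred2* and *Spry1*, inhibitors of the signal below the receptor, differed most between the genotypes in CLT. *Spred2* was at 4.25 and 5.54 RPKM for Ctrl CLT and 10.1 and 9.88 for cKO CLT (0.91, SE 0.19, limma adjusted p = 0.076), and its difference of the genotype effect between the regions was called (0.91, SE 0.20, adjusted p = 0.034), with an adjusted p of 0.12 to 0.14 when any 1 of the CLH or cKO CLT libraries was left out. *Spry1* was at 8.91 and 6.87 RPKM for Ctrl CLT and 12.5 and 14.4 for cKO CLT (0.71, SE 0.20, adjusted p = 0.099). From CLH to CLT in cKO, *Spred2* rose (0.61) and 6 genes fell, where 28.9% of all tested genes were called higher and 45.1% lower. The genes that fell were the transcription factors *Etv5* (-1.42) and *Etv4* (-1.11), the receptor-like inhibitor *Il17rd* (-1.40), *Spry4* (-0.75), *Spred3* (-0.66) and *Spry2* (-0.26). *Spry2* lost its call (adjusted p = 0.045) under median-of-ratios scaling (0.62) and without any 1 of the 4 libraries (0.070 to 0.24), and *Spry4* with all 8 libraries in 1 fit (0.086). The median of these 10 genes between the genotypes in CLT was 0.03 and that of the receptors and binding proteins 0.40. That of the 3 other FGF genes was -1.07, against -0.01 over all tested genes. In CLH the 3 medians were -0.06, 0.14 and 0.02, and limma called 0 genes of these lists, with 1 of 20 (*Fgfr1*, higher) at an unadjusted p under 0.05 and 0 by voom.

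**Figure D5:**
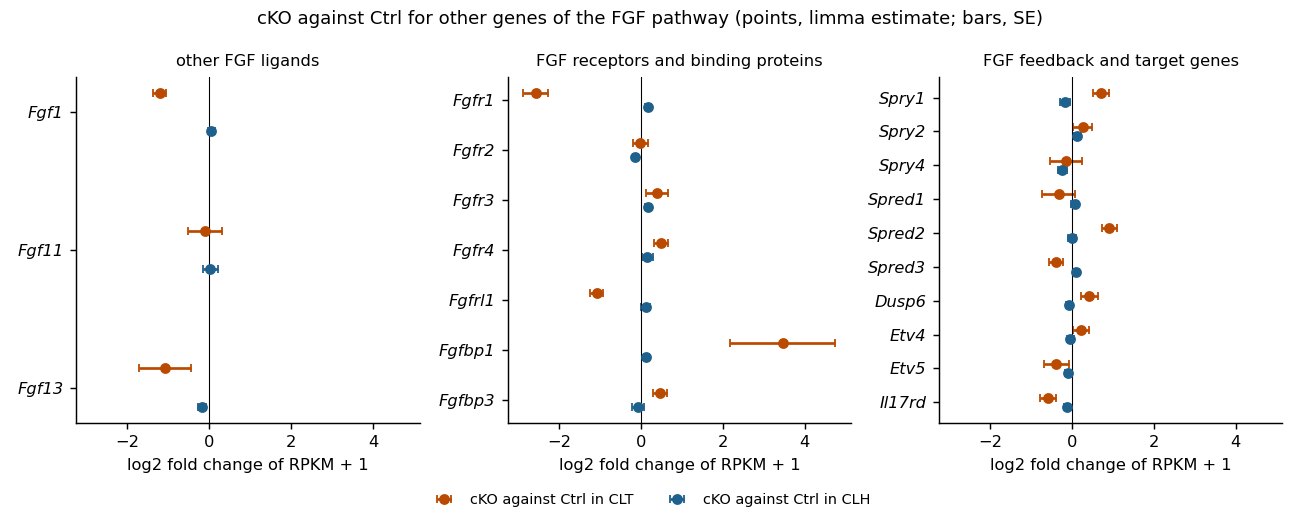
Log2 fold changes of RPKM + 1 between the libraries labelled cKO and Ctrl (x axis, limma estimate with SE) for 20 other genes of the FGF pathway in 3 panels, with CLT in orange and CLH in blue. *Fgfr1* at -2.57 and *Fgfbp1* at 3.46 lie farthest from 0 in CLT, and the CLH points lie close to 0.

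The genes whose log2(RPKM + 1) was most like that of each ligand over the 8 libraries are given as a description. The 8 points share 4 groups and 2 regions, so that one contrast between groups can set such a value. Most like *Fgf5* were *Flg2*, which encodes a protein of the cornified skin layer, the homeobox gene *Hoxb6*, and *Mical2* (Pearson's r of 0.9999 each, over 8 libraries). For *Fgf22* they were *Myog* (r = 0.9997), a myogenic transcription factor, *Ano9* (0.9989) and *Hrc* (0.9988), a calcium-binding protein of the sarcoplasmic reticulum. For *Fgf10* they were *Ywhah* (0.9981), *Smoc2* (0.9977) and the FGF feedback gene *Spry4* (0.9928). *Fgf3* was closest to *Cdk5rap2* (0.9978), *Ndn* (0.9967) and *Drp2* (0.9966), *Fgf9* to *Glipr1* (0.9958), *Tspyl2* (0.9947) and *2410018M08Rik* (0.9942), and *Fgf7* to *Hspe1* (0.9787), *Ncoa6* (0.9784) and *Gfra1* (0.9777). Among the ligands themselves, r over the 8 libraries was 0.995 between *Fgf5* and *Fgf22*, 0.967 between *Fgf3* and *Fgf10*, and -0.974 between *Fgf5* and *Fgf9*.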

How the data were processed

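RNA-seq libraries of CLH and CLT tissue of *Med1* cKO and littermate Ctrl mice (2 per group) were used, grouped by their labels. Per the labels and the study's methods, the authors trimmed reads with Trim Galore 0.4.3.1, aligned them to mm10 with STAR 2.6.0b-1, counted them per gene with featureCounts 1.6.3 and used DESeq2 2.11.40.2. The authors deposited RPKM values of 23358 genes in 8 libraries. The annotation and strand setting are not given in the sources used here.

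Multiplied by gene length, 100% of the RPKM values checked were whole multiples of 1 read (tolerance 0.02 reads), which gave the library totals and the reads behind each value. A value of 0 allows up to 3 reads. Floors and intervals cover counting error only.

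Log2(RPKM + 1) was tested with limma 3.58.1 in R 4.3.3 (lmFit, eBayes with a trend) within the 4 libraries compared, and the interaction over all 8, for the 14148 genes that reached an RPKM of 1 in 2 or more libraries, at a Benjamini-Hochberg adjusted p under 0.05. The fits were also run on simulated data in which all libraries had the same spread. The Ctrl CLT libraries were more spread than the others, so that run does not bear on calls that use them. With 2 libraries a side, the smallest p of an exact permutation test is 0.333. The alternatives tried were median-of-ratios scaling, pseudocounts of 0.1 and 0.5, no filter, a filter on the mean, all 8 libraries in 1 fit, a replicate block, voom on the recovered reads, and each library left out.

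The members, the other lists and the tests were chosen with earlier results of these data known, so none is independent support. Genes named besides the members were the called genes of each pathway list, otherwise the 2 with the largest difference in CLT, and the 3 most alike genes per tested ligand. Promoter windows are those of RefSeq (GRCm38.p6), which matched 7 of the 8 ligands. 0 columns of values were left unused, and 69 rows with a repeated gene name were not used by name.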

Additional observations from a re-analysis of the deposited data

Results flagged for a closer look

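*Fgf7* and *Fgf22* were flagged because the labelled genotypes did not overlap in either region and had opposite sides in CLH and CLT. In CLT alone the genotypes did not overlap for 72.2% of all tested genes. The share of all genes with opposite sides in CLH and CLT was not counted. *Fgf7* was lower in cKO CLH (1.85 and 2.52 RPKM against 2.89 and 4.01) and higher in cKO CLT (1.67 and 1.59 against 0.652 and 1.42), and the difference of the 2 effects was 0.874 on the log2 scale (limma adjusted p = 0.11). *Fgf22* was at 227 and 275 reads in cKO CLT against 91 and 0, with a difference of the 2 effects of 3.08 (limma adjusted p = 0.11). In CLH it had 0 and 0 reads in cKO against 1 and 4, at or near the limit of 3 reads, so that no direction is shown for *Fgf22* there. Neither difference passed the test.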

How the results depend on the processing

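With 2 libraries per group and 2 unlike Ctrl CLT libraries, calls that use Ctrl CLT varied widely. In cKO against Ctrl in CLT, limma called 0 ligands and 248 of all genes. All 8 libraries in 1 fit gave 3 ligands (*Fgf5*, *Fgf9* and *Fgf22*) and 6183 genes, no filter gave 3 genes and voom 0. Leaving out 1 library gave 0 to 5 ligands and 11 to 9838 genes. The labels do not say what the library numbers mark. The main tests, also those between CLH and CLT, treated all libraries as independent. The correlation of the deviations from the group means of same-numbered libraries was -0.192 between the CLT genotypes, 0.0656 between the CLH genotypes, 0.195 between Ctrl CLH and CLT and 0.307 between cKO CLH and CLT, so the numbers were not taken to pair samples. The replicate block gave 2 ligands (*Fgf5* and *Fgf22*) and 1744 genes, and crossed numbers, chosen after seeing the data, gave 0 ligands and 9 genes. For CLT against CLH in Ctrl (0 ligands, 1 gene), both smaller pseudocounts and the filter on the mean gave 2 genes, no filter and voom gave 0, the replicate block gave 5, and all 8 libraries in 1 fit gave 837 with 1 ligand (*Fgf7*). Leaving out 1 library gave 0 to 6 ligands and 0 to 7537 genes. For the difference between the regions (0 ligands, 2494 genes) the replicate block gave 1448 genes and an adjusted p of 0.062 for *Spred2*, and leaving out 1 library gave 0 to 5 ligands and 198 to 8932 genes. The ligand counts for CLT against CLH in cKO and for cKO against Ctrl in CLH stayed within 1.5 times of 5 and 0 under every alternative run, although *Fgf10* in the former had an adjusted p of 0.054 with all 8 libraries in 1 fit. Signs turned for *Fgf10* in CLT without Ctrl CLT 2 (range -1.04 to 0.23 over libraries left out), *Fgf3* in CLH without cKO CLH 1 (-0.31 to 0.12), *Fgf22* for CLT against CLH in Ctrl without Ctrl CLT 1 (-0.23 to 2.65), and *Fgf10* in the difference between the regions with median-of-ratios scaling (0.021), with voom (0.035), and on leaving out 1 library (-0.64 to 0.63; 0.06 without cKO CLT 2, 0.12 without Ctrl CLH 1 and 0.13 without cKO CLH 2). The cause was not tested. Without the filter, *Fgf18* had a log2 fold change of 0.54 in cKO against Ctrl in CLT (limma adjusted p = 0.13) and of 0.44 for CLT against CLH in cKO (adjusted p = 0.045). Depth limits *Fgf18*, *Fgf20* and the cKO CLT values of *Fgf3* and *Fgf9*, which rest on under 30 reads per library.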
